A study of Mus musculus with 10 samples.

Results

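Interferon-stimulated genes and the interferon receptor chains, 40 genes in all, were followed by name through the 54838 genes counted in lung group 2 innate lymphoid cells (ILC2). All 40 matched a gene name in the count table. ILC2 are tissue lymphocytes without antigen receptors that secrete type 2 cytokines. Total RNA was sequenced from ILC2 of c-Maf KO mice (5 libraries, KO 1 to 5) and WT mice (5 libraries, WT 1 to 5), which lack and carry the transcription factor c-Maf. All mice were C57BL/6, cohoused littermates, and had papain-induced inflammation of the lung; papain is a protease that acts as an allergen. Sorting took lung cells that were lineage-negative and CD90.2-positive, whether or not they carried ST2 or KLRG1. The age of the mice, the allele behind the KO and the cells in which Maf was deleted are not named in the labels used. Each title carries its own number, but none states that a library is 1 mouse, so p-values cover only spread among these libraries, which may be technical. The comparison asks whether genes of the interferon response differed in ILC2 without c-Maf.

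Interferons are cytokines of antiviral defence. Type I interferons bind a receptor of IFNAR1 and IFNAR2 and, through the kinases JAK1 and TYK2, assemble a complex with STAT2 and IRF9 that binds the interferon-stimulated response element (ISRE) in target promoters. Interferon gamma binds IFNGR1 and IFNGR2 and acts through JAK1 and JAK2 on promoters with the gamma-activated site (GAS). The induced genes encode sensors of viral RNA, enzymes that degrade or alter viral RNA, and GTPases that act on intracellular pathogens. In mice, interferons are known to restrain lung ILC2.

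The response element was looked for in the members' promoters, of which 6 are shown. They cover classical targets, a signaling factor and the member that rose. They also cover members that fell with (Ddx60) and without (Cmpk2) a match in the bases searched. RefSeq windows of GRCm38.p6, from 250 bases before to 50 after each gene start, were found for 32 of the 40 members. Capitals mark the ISRE letters, GAAA, any 2 bases and GAAA again, on either strand, and overlapping matches run together in Isg15.
Isg15, chr4:156200769-156201068, minus strand: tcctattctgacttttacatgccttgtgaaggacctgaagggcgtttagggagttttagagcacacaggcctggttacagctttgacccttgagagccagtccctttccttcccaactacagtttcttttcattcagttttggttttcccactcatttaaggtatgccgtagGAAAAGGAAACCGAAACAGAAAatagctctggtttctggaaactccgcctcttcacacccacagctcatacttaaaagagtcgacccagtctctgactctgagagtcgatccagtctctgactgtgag
Ifit1, chr19:34640639-34640938, plus strand: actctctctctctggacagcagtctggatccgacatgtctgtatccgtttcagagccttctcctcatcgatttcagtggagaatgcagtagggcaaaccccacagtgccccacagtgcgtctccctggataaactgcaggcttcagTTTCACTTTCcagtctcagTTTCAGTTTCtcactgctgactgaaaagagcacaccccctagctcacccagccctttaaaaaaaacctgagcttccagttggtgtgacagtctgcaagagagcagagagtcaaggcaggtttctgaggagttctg
Stat2, chr10:128270248-128270547, plus strand: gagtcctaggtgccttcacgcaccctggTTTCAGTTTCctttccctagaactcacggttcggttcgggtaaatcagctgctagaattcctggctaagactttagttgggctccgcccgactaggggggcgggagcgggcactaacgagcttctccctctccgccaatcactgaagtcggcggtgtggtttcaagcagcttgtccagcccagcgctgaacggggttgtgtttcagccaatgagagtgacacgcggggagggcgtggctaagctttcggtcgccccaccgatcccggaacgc
Ddx60, chr8:61927837-61928136, plus strand: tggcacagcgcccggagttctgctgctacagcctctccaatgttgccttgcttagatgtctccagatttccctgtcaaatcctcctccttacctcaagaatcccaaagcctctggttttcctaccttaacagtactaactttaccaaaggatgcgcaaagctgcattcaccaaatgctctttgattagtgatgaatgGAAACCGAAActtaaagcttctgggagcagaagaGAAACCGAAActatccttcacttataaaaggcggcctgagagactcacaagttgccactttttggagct
Cmpk2, chr12:26468965-26469264, plus strand: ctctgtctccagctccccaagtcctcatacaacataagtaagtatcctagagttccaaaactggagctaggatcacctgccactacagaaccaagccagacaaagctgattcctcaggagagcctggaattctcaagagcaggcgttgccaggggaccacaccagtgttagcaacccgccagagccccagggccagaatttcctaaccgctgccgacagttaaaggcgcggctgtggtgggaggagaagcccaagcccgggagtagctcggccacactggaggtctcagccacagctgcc
Trim30a, chr7:104465144-104465443, minus strand: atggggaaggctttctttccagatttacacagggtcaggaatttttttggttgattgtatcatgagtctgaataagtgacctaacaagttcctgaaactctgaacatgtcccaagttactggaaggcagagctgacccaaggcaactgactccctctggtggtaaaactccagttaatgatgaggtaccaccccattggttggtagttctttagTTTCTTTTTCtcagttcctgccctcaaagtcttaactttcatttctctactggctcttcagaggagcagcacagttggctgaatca
The ISRE letters stood in at least 1 window of 17 of 32 members (53.1%), against 3.99% of the 27025 genes with a window. The GAS letters TTCNNNGAA stood in windows of 9 of the 32 members (28.1%), against 9.55% of all those genes. By result of the test below, the ISRE letters stood in windows of 1 of 5 members that fell, 1 of 1 that rose, 9 of 15 that did not pass and 6 of 11 not tested. These are matches of letters in a short window and not measured binding sites. GAA is part of both motifs, so a match of each can share bases, and windows of Oas1a, Bst2, Gbp7 and Igtp held both.

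The libraries differed in depth and in how many genes they held. KO libraries had 3620002 to 9867580 counts and WT libraries 21400938 to 24489987. Of the 7490 genes tested, 54.6 to 82% had at most 3 counts, here called missing, in a KO library, against 0.694 to 3.51% in a WT library. TMM scaling factors were 0.1803 to 0.9276 in KO and 1.462 to 1.908 in WT libraries. Globin genes, 4 in all, held 19% of counts in KO 1 and 0.0107 to 0.0748% in KO 2 to KO 5, against 0.000139 to 0.000919% in WT libraries. Mitochondrial genes held 9.72 to 33.9% of counts in KO and 32.3 to 45.3% in WT. Spearman correlations between libraries were 0.345 to 0.464 within KO and 0.808 to 0.875 within WT. Maf itself had 0, 0, 0, 108 and 0 counts in KO 1 to 5, against 3252, 3832, 1412, 1696 and 2727 in WT 1 to 5, so KO 4 held counts of the targeted gene (edgeR adjusted p = 0.141, exact permutation adjusted p = 0.0268). ILC2 markers were present in both groups, 11 of 12 in KO with a summed level of 4190 to 20500 CPM and 12 of 12 in WT with 3520 to 5660 CPM. Levels in CPM are scaled by TMM unless library size alone is named.

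Among markers of other cells, the erythroid list, made of the 4 globin genes, separated the groups: all 4 were over 3 counts in both, and they summed to 170 to 887 CPM in KO 2 to KO 5 and 1060000 CPM in KO 1, against 0.76 to 4.89 CPM in WT. Macrophage and monocyte markers summed to 33.9 to 826 CPM in KO and 180 to 443 CPM in WT. Over 3 counts in any library were 2 of 9 in KO and 7 of 9 in WT. Cd68, Marco, Fcgr1 and Ly6c2 were at 0 in every KO library, and Fcgr1 was at 0 in every WT library too. Dendritic cell markers, a list that includes the member Bst2, summed to 2.35 to 368 CPM in KO and 11.5 to 20 CPM in WT. Over 3 counts were 2 of 7 in KO and 4 of 7 in WT. Xcr1, Clec9a, Siglech and Irf8 were at 0 in all KO libraries, and Siglech and Irf8 were at 0 in all WT libraries too. B cell markers reached 264 CPM in KO 4 and at most 1.18 CPM in the other KO libraries. In WT they summed to 0.0228 to 4.32 CPM. Cd79a, Cd79b and Ms4a1 were at 0 in all KO libraries, and Ms4a1 was at 0 in all WT libraries too. T cell markers summed to 0.9 to 43.5 CPM in KO (2 of 7) and 12.2 to 69.2 CPM in WT (4 of 7), with Cd8a and Cd8b1 at 0 in all 10 libraries. NK and ILC1 markers were at 0 in all KO libraries (0 of 6) and at most 5.98 CPM in WT (2 of 6), with Ncr1 and Eomes at 0 throughout. Neutrophil markers summed to at most 0.998 CPM in KO and 1.68 CPM in WT, and epithelial markers to at most 16.2 and 6.49 CPM. Eosinophil and mast cell markers reached 72.9 CPM in KO 1 and at most 0.438 CPM in the other KO libraries. In WT they summed to 0.268 to 7.79 CPM. Endothelial markers summed to 0 to 76.5 CPM in KO (median 0.57) and 24.1 to 91 CPM in WT (median 56.4). Of these, 2 of 4 were over 3 counts in KO and 1 of 4 in WT. The part of these cells in the results below was not tested. In such bulk samples, fewer cells of a type and less RNA per cell cannot be told apart.

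**Figure D1:**
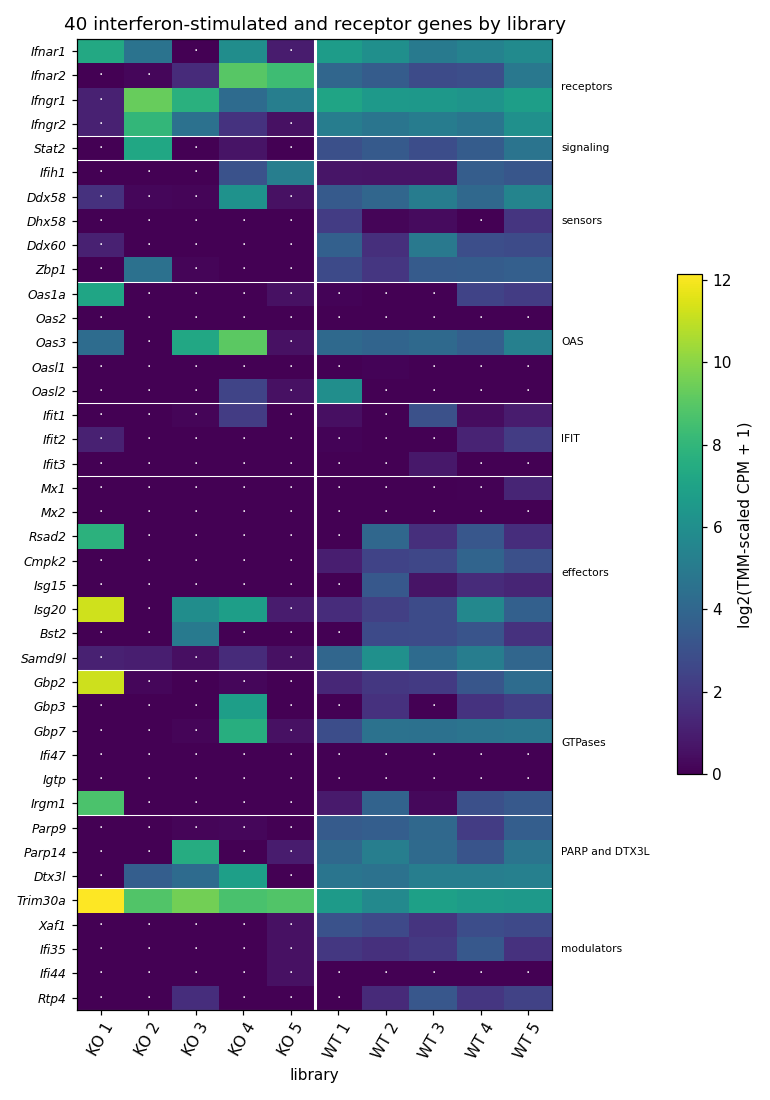
Level of each of the 40 genes (rows, grouped by role) in each library (columns, KO left of WT), as log2(TMM-scaled CPM + 1); a dot marks at most 3 counts. All 5 WT columns are filled for 22 of the members, while each KO column shows a different small set, and Trim30a is bright in all 10 libraries.

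Of the 40 members, 36 had any count and 25 had enough counts for the edgeR quasi-likelihood test. Of these 25, 6 were lower in KO, 1 was higher and 18 did not pass at an adjusted p of 0.05. Over all 7490 genes tested, 27.1% were lower and 1.5% higher, so the 24% of tested members that were lower is near the background and is not a result about interferon-stimulated genes. The filter asks for counts in at least 5 libraries, so most members passed it through their WT counts, which by itself favors lower calls. Among the 25 tested members, every KO library was below every WT library for the same 6, against 28.9% of all tested genes. Every KO library was above every WT library for the member that rose, against 0.774% of all tested genes. An exact permutation test, two-sided, on log2(CPM + 1) and adjusted over all genes, passed for these 7 members as well (p = 0.00794, the smallest that 5 against 5 libraries allow, adjusted p = 0.0268), against 32.2% of all genes lower and 0.975% higher. Without KO 4, the library with Maf counts, 9 members were lower and 3 higher, beside 37.8% and 3.41% of all genes, and without KO 1, the library with globin, 10 were lower and 1 higher, beside 33.7% and 3.72%.

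The median log2 fold change, KO over WT, was 0.65 over the 25 tested members and −0.47 over all tested genes. These medians were −0.41 and −1.77 with library size alone, and 1.04 and 0.09 with RLE size factors. The sign of the members' median thus depended on the scaling, while it lay above that of all genes under these 3. With DESeq2, which tested 20 members and 11211 genes, it lay below, at −1.4 against −0.77. The set of members was not the same there, so this median cannot be set directly beside the others. DESeq2 left out Isg20, Rsad2, Stat2, Parp14, Gbp2, Gbp7, Irgm1 and Ifngr2, all with positive log2 fold changes in the main test.

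The receptor chains were present in every WT library and in an uneven set of KO libraries. Ifnar1, the signaling chain of the type I receptor, had 135, 158, 0, 429 and 2 counts in KO 1 to 5, against 3600, 2893, 1049, 1859 and 2401 in WT 1 to 5. Its scaled level was 48.9 ± 66.3 CPM in KO and 59 ± 27.7 CPM in WT (SD, n = 5 each; log2 fold change −0.27, SE 1.66, edgeR adjusted p = 0.93). The groups overlapped: by scaled level KO 1, with its scaling factor of 0.1803, stood above every WT library, KO 4 within their range and the other 3 below. Scaling by RLE gave a log2 fold change of 1.7 for Ifnar1, and library size alone gave −2.45, so no direction can be given.

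Ifnar2, the high-affinity binding chain, had 0, 1, 13, 3599 and 741 counts in KO 1 to 5, against 526, 472, 195, 298 and 1215 in WT 1 to 5. By scaled level KO 4 and KO 5 exceeded every WT library and the other 3 KO libraries were below every one. The level was 168 ± 239 CPM in KO and 13.1 ± 8.9 CPM in WT (SD, n = 5 each; log2 fold change 3.68, SE 1.99, edgeR adjusted p = 0.206; DESeq2 adjusted p = 0.0367). Of its exon bases, 73.6% lie inside Gm21970, another gene annotated on the same strand, and 9.46% inside exons of another gene. Which of these applies depends on the feature type counted, which is not named in the labels, so its counts are uncertain.

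Ifngr1, the ligand-binding chain of the interferon gamma receptor, had 1, 4207, 1499, 125 and 82 counts in KO 1 to 5, against 4722, 4206, 2873, 3522 and 4801 in WT 1 to 5. It was the most evenly expressed receptor chain in WT, with a coefficient of variation of 0.225, and was present in 4 of 5 KO libraries. Levels were 178 ± 266 CPM in KO and 101 ± 22.6 CPM in WT (SD, n = 5 each; log2 fold change 0.83, SE 1.46, edgeR adjusted p = 0.736). Its partner chain Ifngr2 had 1, 1756, 160, 17 and 1 counts in KO, against 1181, 1115, 1095, 1162 and 2964 in WT libraries 1 to 5 (log2 fold change 0.65, SE 1.66, edgeR adjusted p = 0.821). For Ifngr1 and Ifngr2 the highest KO library was KO 2, and without it both log2 fold changes were below 0 (−0.58 and −2.45), as they were with library size alone (−0.3 and −0.57). Ifnar2, Il10rb, Ifnar1 and Ifngr2 are neighbours on chromosome 16, and Il10rb, a chain shared by the receptors of IL-10 and interferon lambda, fell, with 0 counts in every KO library and 566 in WT (at least 23.3-fold lower, edgeR adjusted p = 0.00163).

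Downstream of the receptors, the signaling genes differed in which KO libraries held them. Stat2, a subunit of the type I complex, had 0, 984, 0, 4 and 0 counts in KO 1 to 5, against 235, 449, 208, 480 and 1083 in WT 1 to 5. A single library, KO 2, set its level (log2 fold change 1.35, SE 1.94, adjusted p = 0.671 in edgeR), and without it the value was −5.79 with an adjusted p of 0.00813. Irf9, the DNA-binding subunit of that complex, had 377 and 1 counts in KO 4 and KO 5 and 0 in the other 3, against 0, 374, 66, 1002 and 236 in WT 1 to 5 (edgeR adjusted p = 0.875). Over 3 counts were thus held by 2 KO libraries for Stat2 and by 1 for Irf9. Jak1, the kinase common to both receptors, had 384, 24570, 5715, 8512 and 2681 counts in KO 1 to 5, against 13910, 15720, 10001, 12772 and 17306 in WT 1 to 5. Every KO library stood above every WT library by scaled level, at 1460 ± 1280 CPM in KO and 345 ± 52.8 CPM in WT (SD, n = 5 each; edgeR adjusted p = 0.14, exact permutation adjusted p = 0.0268). By library size alone the groups overlapped, with 80.7, 2710, 661, 863 and 741 CPM in KO 1 to 5, against 578, 642, 467, 530 and 740 CPM in WT 1 to 5. Of the 9 tested genes in the list of receptor signaling, 2 fell (22.2%, beside 27.1% of all tested genes), Il10rb among them, 0 rose and 7 did not pass. Tyk2 was too weak for the test, with 0 counts in KO and 7, 48, 0, 115 and 15 in WT.

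No counts of the ligands were found. All 10 interferon genes looked up, among them Ifng, Ifnb1 and Ifna4, were listed at 0 in all 10 libraries. So were 35824 of the 54838 genes counted, and the zeros of the ligands were not read as absence. Usp18, the main brake on type I signaling, had 0 counts in every KO library and in WT 1 to 3, and 255 and 110 in WT 4 and WT 5. Irf7, the factor that amplifies interferon production, had 0 counts in KO and 57, 8, 9, 94 and 62 in WT 1 to 5. Neither passed the filter on low counts. Of the 3 tested feedback genes, 1 fell (33.3%, beside 27.1% of all tested genes): Trim24, with 13 counts in KO and 6505 in WT (log2 fold change −5.67, edgeR adjusted p = 0.0134).

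Among the 5 sensors of viral nucleic acid, 1 fell, 3 did not pass and 1 was not tested. Ddx60, a helicase linked to RIG-I signaling, had 1, 0, 0, 0 and 0 counts in KO 1 to 5, against 427, 92, 955, 300 and 259 in WT 1 to 5. It fell (edgeR adjusted p = 0.00473), with a WT over KO ratio of counts per scaled library of 243 (95% counting interval 43.5 to 9590; 154 without WT 3), and the groups did not overlap. Its promoter, printed above, holds 2 ISRE matches. Ddx58, which encodes RIG-I, had 2, 1, 1, 509 and 1 counts in KO 1 to 5, against 339, 679, 1104, 719 and 1937 in WT 1 to 5. KO 4 alone brought it to a log2 fold change of −0.63 (SE 1.67, adjusted p = 0.827 in edgeR), and without KO 4 it was −4.89 with an adjusted p of 0.021. Ifih1, which encodes MDA5, had 0, 0, 0, 52 and 80 counts in KO, against 22, 24, 19, 491 and 370 in WT libraries 1 to 5. WT 1 to WT 3 were low and WT 4 and WT 5 high, while KO 5 stood above every WT library by scaled level and 3 KO libraries were at 0 (edgeR adjusted p = 0.708). Zbp1, a sensor of Z-form nucleic acid, had 149 and 1 counts in KO 2 and KO 3 and 0 in the others, against 122 to 511 in WT (edgeR adjusted p = 0.747; log2 fold change −7.07 and adjusted p 0.00598 without KO 2). Dhx58, which encodes the RIG-I-like protein LGP2, was not tested, at 0 counts in KO and 0 to 120 in WT.

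In the list of other sensors and adaptors, 4 of 12 tested genes fell (33.3%, beside 27.1% of all tested genes), 0 rose and 8 did not pass. Adar, the enzyme that edits double-stranded RNA, had 0 counts in every KO library, against 1248, 266, 198, 395 and 590 in WT 1 to 5, at least 112-fold lower, or at least 68.2-fold without WT 1. Tbk1, the kinase that activates IRF3, had 2 counts in KO and 3660 in WT, a WT over KO ratio of 218 (95% counting interval 60.4 to 1800). The edgeR adjusted p was 0.00163 for Adar and Tbk1, and 0.0221 for Unc93b1, a carrier of endosomal Toll-like receptors with 7 counts in KO and 885 in WT.

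The 2′-5′-oligoadenylate synthetases are enzymes that respond to double-stranded RNA. Oas3 was the member of this family with counts in every WT library. It had 16, 0, 1133, 3750 and 1 counts in KO 1 to 5, against 584, 616, 564, 532 and 1671 in WT 1 to 5. By scaled level KO 3 and KO 4 stood above every WT library, KO 1 within their range and KO 2 and KO 5 below (log2 fold change 2.87, SE 1.88, edgeR adjusted p = 0.305). Oas1a had 118 counts in KO 1 and at most 1 in the other KO libraries, against 203 and 153 in WT 4 and WT 5 and at most 3 in the other WT libraries. Oasl2 had 33 counts in KO 4 and 1 in KO 5, and 2217 of its 2218 WT counts were in WT 1. Oasl1 had 0 counts in KO and 5 in WT, and Oas2 was listed at 0 in every library. Reads of Oas1a could be split with its close copies, such as Oas1g.

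The classical antiviral genes had few counts even in WT libraries, and none of the IFIT family was tested. Ifit1, which binds viral RNA without a host cap, had 24 counts in KO 4, 1 in KO 3 and 0 in the others, against 14, 0, 236, 14 and 40 in WT 1 to 5. Ifit2 had 1 count in KO and 214 in WT, and Ifit3 had 0 in KO and 25 in WT, 24 of them in WT 3. Isg15, a ubiquitin-like modifier, had 0 counts in every KO library, against 1, 409, 18, 80 and 61 in WT 1 to 5. It was at least 20.7-fold lower in KO, or at least 7.5-fold without WT 2, and passed as lower with DESeq2 and with no filter on low counts but was left out of the main test by that filter. The printed promoters of Isg15 and Ifit1 hold 3 and 2 ISRE matches. Mx1 had 0 counts in KO and 65 in WT, 61 of them in WT 5, and Mx2 was listed at 0 throughout. Both Mx genes are known to be defective in most laboratory mouse strains.

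Rsad2 and Cmpk2, neighbours on chromosome 12 with 12751 bases between them, encode viperin and a mitochondrial nucleotide kinase. Cmpk2 had 0 counts in all 5 KO libraries, against 35, 198, 167, 630 and 296 in WT 1 to 5. It fell, at least 50-fold when the KO group is set at a floor of 3 counts in all (0.124 CPM), with an edgeR adjusted p of 0.00163. Rsad2 had 189 counts in KO 1 and 0 in the other 4 KO libraries, against 0, 707, 71, 392 and 86 in WT 1 to 5. Rsad2 did not pass (log2 fold change 2.95, SE 2.44, adjusted p = 0.431 in edgeR), and without KO 1 its KO values were all 0 and the adjusted p was 0.0153.

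Samd9l, an antiviral factor that restricts translation, was the member that fell with the most counts left in KO. It had 1, 7, 3, 13 and 1 counts in KO 1 to 5, against 531, 3047, 588, 1538 and 665 in WT 1 to 5. Levels were 0.986 ± 0.597 CPM in KO and 30 ± 22.7 CPM in WT (SD, n = 5 each), without overlap (log2 fold change −4.92, SE 1.45, edgeR adjusted p = 0.014). Isg20, an RNA exonuclease, had 2050, 0, 449, 789 and 2 counts in KO 1 to 5, against 67, 175, 196, 2217 and 528 in WT 1 to 5. By scaled level KO 1, KO 3 and KO 4 stood above every WT library and KO 2 and KO 5 below (log2 fold change 5.15, SE 2.15, adjusted p = 0.0896 in edgeR). It passed as higher with RLE size factors (adjusted p = 0.0378) and without any of KO 2, KO 3, KO 4 or KO 5 (0.0255, 0.0459, 0.0486 and 0.0333). Without KO 1 its log2 fold change was 1.56 (adjusted p = 0.54), and with library size alone 2.08 (0.501). Bst2, which encodes the membrane protein tetherin, had 230 counts in KO 3 and 0 in the other KO libraries, against 0, 247, 194, 354 and 100 in WT 1 to 5. Its edgeR adjusted p was 0.848, and without KO 3 it was 0.0198 with KO values all at 0.

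The guanylate-binding proteins and immunity-related GTPases, which interferon gamma induces to attack intracellular pathogens, showed no call among 3 tested genes of 6. Gbp2 had 2025, 1, 0, 1 and 0 counts in KO 1 to 5, against 53, 132, 106, 380 and 824 in WT 1 to 5. A single library thus turned the value: the log2 fold change was 6.09 (SE 2.68, edgeR adjusted p = 0.109) with KO 1 and −6.26 (adjusted p = 0.00712) without it. It passed as higher with RLE size factors (adjusted p = 0.0495) and without any of KO 2 to KO 5 (adjusted p from 0.0408 to 0.0488). Irgm1 had 351 counts in KO 1 and 0 in the other KO libraries, against 29, 606, 6, 312 and 410 in WT 1 to 5 (edgeR adjusted p = 0.319, and 0.00829 without KO 1). Gbp7 had 0, 0, 1, 1360 and 1 counts in KO 1 to 5, against 219, 1018, 747, 1106 and 1136 in WT 1 to 5 (edgeR adjusted p = 0.781, and 0.00593 without KO 4). Gbp3, of the same cluster on chromosome 3, had 765 counts in KO 4 and 0 in the other KO libraries, and 0, 102, 0, 108 and 167 in WT 1 to 5. KO 1 thus alone held Gbp2 and Irgm1 among KO libraries, and KO 4 alone held Gbp3 and Gbp7. Ifi47 and Igtp were at 0 in every library. Of their exon bases 100% and 96.9% lie inside the genes Olfr56 and Irgm2, and 8.77% and 8.01% inside exons of another gene. With the counted feature type unknown, their zeros were not read as absence.

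PARP9, PARP14 and DTX3L are ADP-ribosylation and ubiquitin enzymes that interferon induces. Parp9 fell, with 0, 0, 1, 1 and 0 counts in KO 1 to 5, against 359, 503, 544, 154 and 499 in WT 1 to 5 (edgeR adjusted p = 0.00163). The WT over KO ratio was 123 (95% counting interval 34 to 1020). Dtx3l, which encodes the binding partner of PARP9, overlaps its start on the opposite strand, and its counts were 0, 76, 132, 806 and 0 in KO 1 to 5, against 881, 1032, 1166, 1591 and 1672 in WT 1 to 5. It was over 3 counts in 3 KO libraries in which Parp9 was not (log2 fold change −0.11, SE 1.66, adjusted p = 0.975 in edgeR). Of the exon bases of Parp9, 45.3% lie inside Dtx3l or the antisense Gm15564 and 9.4% inside their exons; the strand setting and feature type of the counting are not given, so their split is uncertain. Parp14 had 1334 counts in KO 3 and at most 2 in the other KO libraries, against 356 to 1601 in WT (edgeR adjusted p = 0.802, and 0.0111 without KO 3).

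**Figure D2:**
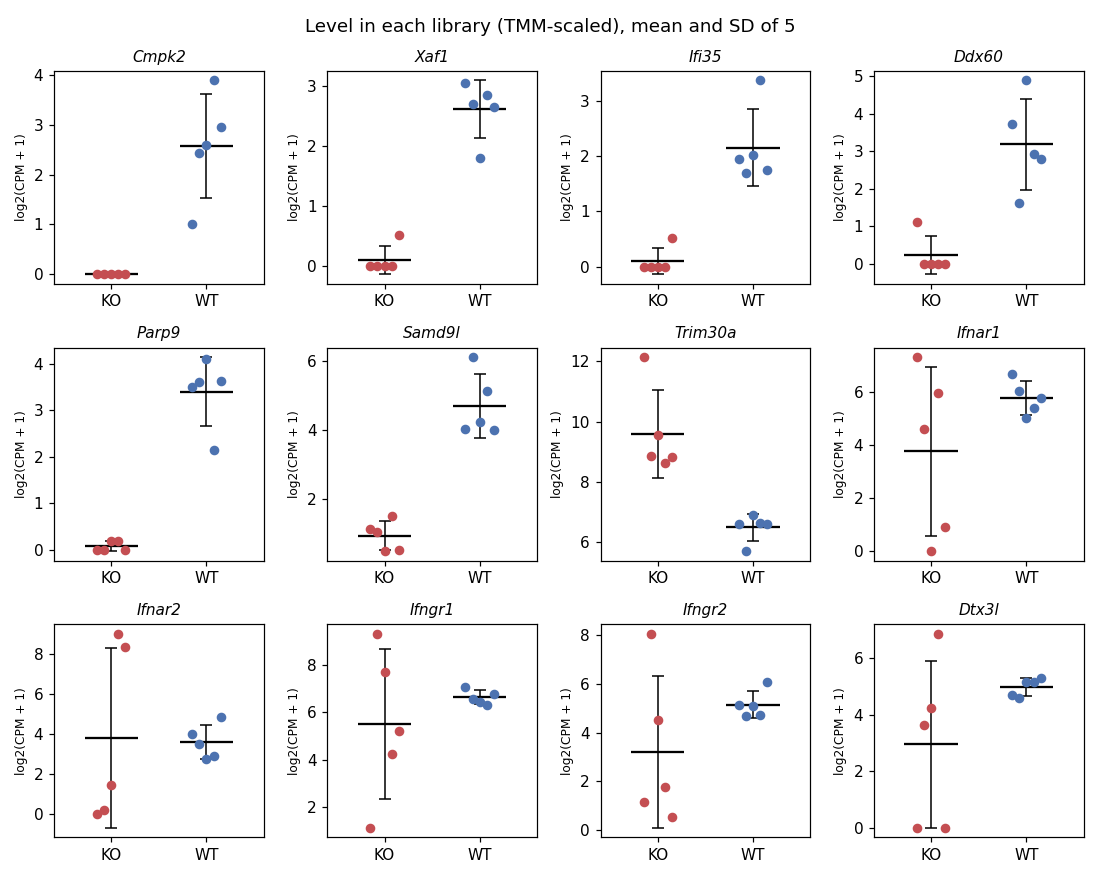
Level in each library as log2(TMM-scaled CPM + 1) for the 7 members that passed, the 4 receptor chains and Dtx3l; KO left of WT, bars give mean and SD of 5 libraries. Cmpk2, Xaf1, Ifi35, Ddx60, Parp9 and Samd9l lie near 0 in KO, Trim30a lies higher in all KO libraries, and the receptor chains and Dtx3l span both sides of the WT values in KO.

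Of the 5 remaining members, grouped here as modulators, 2 fell and 1 rose. Xaf1, a partner of the apoptosis inhibitor XIAP, had 1 count in KO 5 and 0 in the other KO libraries, against 256, 246, 83, 282 and 233 in WT 1 to 5. It fell (edgeR adjusted p = 0.00166), with a WT over KO ratio of 131 (95% counting interval 23.5 to 5190). Ifi35, which encodes a leucine zipper protein, also had 1 count in KO 5 and 0 elsewhere in KO, against 100, 100, 101, 420 and 103 in WT 1 to 5 (edgeR adjusted p = 0.00225). Its WT over KO ratio was 98.3 (95% counting interval 17.6 to 3890), or 62.1 without WT 4. Rtp4, known as a chaperone of receptor transport, had 15 counts in KO 3 and 0 in the other KO libraries, against 0, 77, 298, 127 and 186 in WT 1 to 5 (log2 fold change −2.84, SE 1.47, adjusted p = 0.184 in edgeR, and 0.0242 without KO 3, where all KO values were 0). Ifi44 had 1 count, in KO 5, and 0 in WT.

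Trim30a, which in mouse encodes a negative regulator of Toll-like receptor signaling, was the only member that rose in the main test. It had 3829, 3088, 5425, 2787 and 1037 counts in KO 1 to 5, against 3347, 2285, 3933, 4458 and 4167 in WT 1 to 5, so its raw counts were alike while the KO totals were smaller. By library size it stood at 805, 340, 627, 282 and 286 CPM in KO, against 139, 93.3, 184, 185 and 178 CPM in WT, and the groups did not overlap. By TMM-scaled level it stood at 1310 ± 1790 CPM in KO and 91.7 ± 24.6 CPM in WT (SD, n = 5 each; log2 fold change 3.84, SE 1.18, edgeR adjusted p = 0.0189). KO 1 was the highest KO library on both scales, at 4500 CPM by TMM where the other 4 lay between 397 and 743, and without it the log2 fold change was 2.57 (adjusted p = 0.045). The call did not hold with library size alone (log2 fold change 1.64, adjusted p = 0.302), with no filter (adjusted p = 0.0712), or without any of WT 1 to WT 5 (adjusted p from 0.0504 to 0.0679). Trim30a has close copies in a cluster on chromosome 7, such as Trim30d, so reads could be split between them.

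Presence in KO libraries was scattered across the members. Of the 25 tested members, 5 were missing from every KO library, 9 had over 3 counts in exactly 1 of them, 3 in exactly 2, 6 in exactly 3, 1 in exactly 4 and 1, Trim30a, in all 5. Missing from all 5 KO libraries were 20% of tested members and 22.3% of all tested genes. Of all tested genes, 7.06% had over 3 counts in all 5 KO libraries, beside 1 of the 25 members. The classes between were not counted over all genes, so the scatter is not a result about the members. KO 4 held 13 of the 25, KO 3 held 10, KO 2 held 8, KO 1 held 7 and KO 5 held 4. The members missing thus made up 72, 68, 60, 48 and 84% in KO 1 to 5, against 82, 63.6, 54.6, 55.1 and 65% of all tested genes. In WT, 12% of tested members were missing from WT 1 and 0% from the other WT libraries. Over all 40 members, 30.8 ± 4.38 were missing per KO library and 11 ± 2.55 per WT library (SD, n = 5 each). After all libraries were thinned to the smallest total these were 31 ± 4 and 12.4 ± 3.29. The groups did not overlap either way. At least 24 were missing in KO and at most 15 in WT as deposited, and at least 25 and at most 16 after thinning. All tested genes split likewise as deposited, with 54.6 to 82% missing in KO and 0.694 to 3.51% in WT. Missing genes after thinning were not counted over all genes, so the split is not a result about the members.

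**Figure D3:**
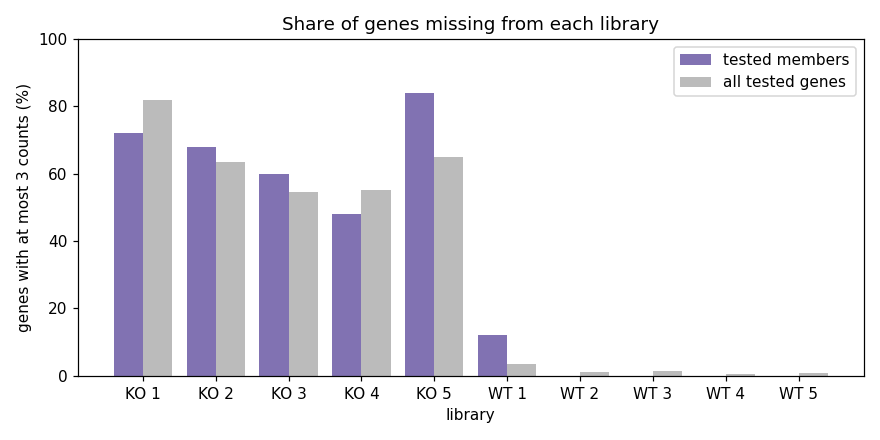
Share of genes with at most 3 counts in each library (KO left of WT), for the 25 tested members and all 7490 tested genes. Members range from 48 to 84% in KO and from 0 to 12% in WT, beside 54.6 to 82% and 0.694 to 3.51% of all genes.

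The missing members could be set beside genes of like WT level. Of 1349 tested genes at 5 to 10 CPM in WT, 41.3% were missing from all 5 KO libraries, as were 2 of 6 members in that range. At 10 to 20 CPM these were 28.9% of 1638 genes and 2 of 6 members, and at 20 to 50 CPM 13.1% of 1692 genes and 0 of 6 members. Above 50 CPM they were 1.29% of 1547 genes and 0 of 3 members, and below 5 CPM 31.3% of 1264 genes and 1 of 4 members. The median WT level, per gene and not per length, was 11.7 CPM over the tested members and 16.2 CPM over all tested genes.

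Within WT, the members varied a little more between libraries than other genes. Their median coefficient of variation was 0.645, against 0.552 over all tested genes. The members' median WT level was lower (11.7 against 16.2 CPM), and the coefficients were not compared at like level. The coefficient was highest for Isg20 (1.35), Ifih1 (1.2), Rsad2 (1.14), Gbp2 (1.02) and Rtp4 (0.959), and lowest for Dtx3l (0.214), Ifngr1 (0.225) and Trim30a (0.268). WT 5 held the highest value of 9 of the 25 tested members and the lowest of 1, against 20.3% and 14.2% of all tested genes. No single WT library held the peak of all inducible genes: Ifit1 and Ddx60 peaked in WT 3, Rsad2, Isg15, Samd9l and Irgm1 in WT 2, Isg20, Cmpk2 and Ifi35 in WT 4, and Gbp2, Mx1 and Stat2 in WT 5.

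Interferon-stimulated genes outside the 40 gave a similar count. Of 76 further genes looked up, 75 matched and 43 were tested, of which 10 fell (23.3%, beside 27.1% of all tested genes), 0 rose and 33 did not pass. The 4 with the smallest p were Znfx1, an RNA helicase-like sensor (1 count in KO and 4080 in WT), Gbp5 (0 and 635), Phf11b (0 and 2434) and Tor3a (2 and 1261), with edgeR adjusted p-values of 0.00163, 0.00163, 0.00163 and 0.00184. The median log2 fold change of the 43 was −0.44, against −0.47 over all genes.

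**Figure D4:**
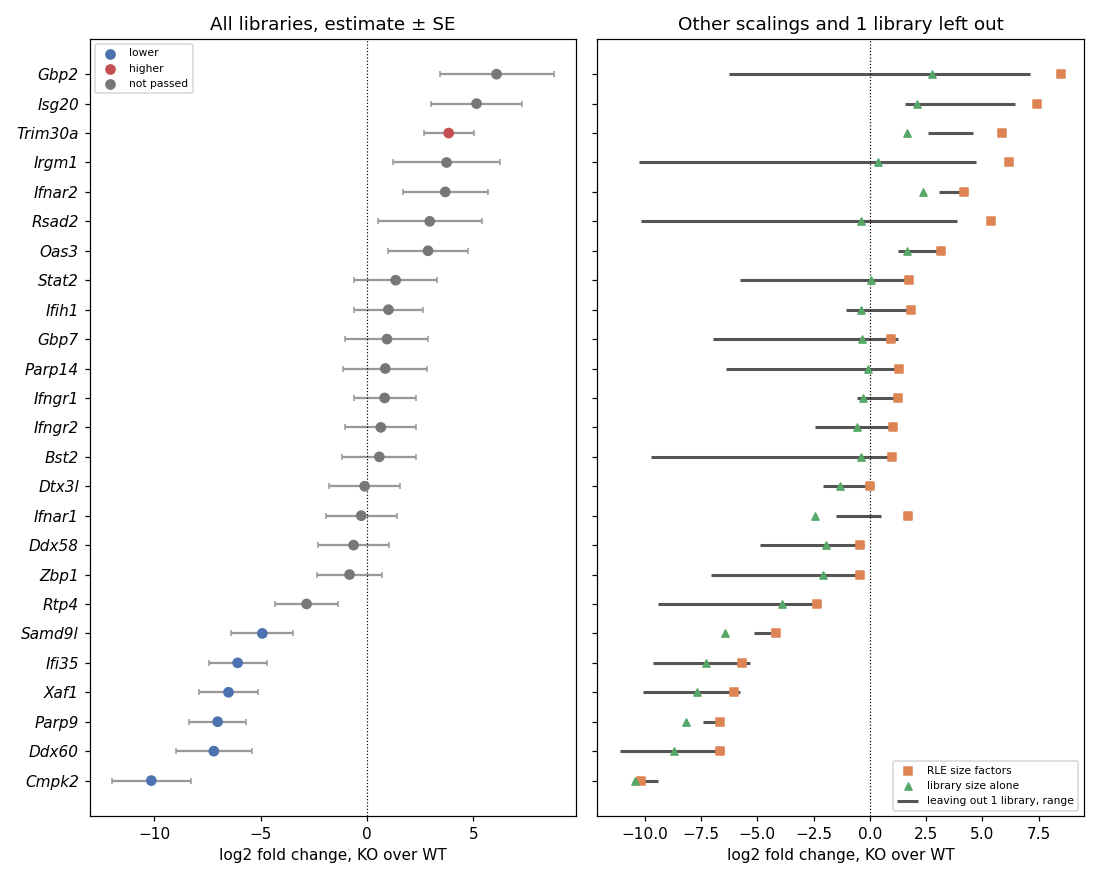
Log2 fold change, KO over WT, of the 25 tested members. Left, edgeR estimates with SE, colored by call; right, values under other scalings and the range when 1 library is left out. The 6 members that fell stay below 0 throughout, while a single left-out library carries Gbp2, Irgm1, Rsad2, Stat2, Gbp7, Parp14 and Bst2 from above 0 to between −5.79 and −10.27. Where all KO values are 0, as for Cmpk2, the fitted value depends on a prior count and is no bound.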

How the data were processed

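Counts per gene of 10 total RNA libraries were analysed. The authors deposited raw read counts, whole numbers with no normalization, and the submitters' processing notes name STAR 2.6.0c, SAMtools 1.8, HTSeq 0.9.1 and build GRCm38. The kit was strand-specific, per the labels' protocols; the counting's strand setting and the annotation release are not named in the labels. Groups came from the genotype label; library numbers follow the order of deposit and pair nothing.

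Genes passed filterByExpr (7490 kept), were scaled by TMM and tested with edgeR 4.0.16 (R 4.3.3) quasi-likelihood, KO against WT, with Benjamini-Hochberg adjustment over all genes kept. The SE is the log2 fold change divided by the square root of F. Exact permutation tests enumerated all 252 label orders for every tested gene. DESeq2 1.42.0, RLE size factors, library size alone, no filter, thinning and leaving out each library were alternatives; the permutation test and leaving out KO 1 and KO 5 were added after seeing the data. A gene at 0 throughout KO has its fold given as a bound, set by 3 counts over that group; with 1 to 3 KO counts, a ratio with its exact 95% interval is given. Without molecular identifiers reads may repeat molecules, so these cover counting error only. The fit was checked on simulated counts that had the spread of the WT libraries in both groups. That check does not cover the wider spread among KO libraries. No 2 libraries of a group were alike within sampling noise.

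The members and lists were chosen with earlier results of these data known. Values per library were given for members that passed, members with over 3 counts in at least 3 KO libraries, the receptors and the 5 most variable members in WT; other members are given by values or ranges chosen after they were seen. Positions and overlaps came from GENCODE M21 (GRCm38), promoters from RefSeq (GRCm38.p6). Some genes of the lists are not reported here.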

Additional observations from a re-analysis of the deposited data

Results flagged for a closer look

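A library stood apart from the other 4 of its group, by a gap over 0.71 of the group's range, for 19 of 24 members examined in KO and 11 of 34 in WT. Chance gives about 1 in 20 for values that follow a normal distribution. The values used were scaled CPM without a log, which need not follow it, so the excess was not read as a result. The same share over all genes was not computed. In a group where most libraries are at 0, any library with counts stands apart. The gap as a share of the range is given for each. KO 1 was high for Isg20 (0.953), Oas1a (0.997), Rsad2 (1), Trim30a (0.916), Gbp2 (1), Irgm1 (1). KO 2 was high for Stat2 (0.996), Zbp1 (0.994), Ifngr2 (0.918). KO 3 was high for Bst2 (1), Rtp4 (1), Parp14 (0.995). KO 4 was high for Ifit1 (0.96), Oasl2 (0.907), Ddx58 (0.969), Dtx3l (0.843), Gbp3 (1), Gbp7 (0.998). KO 5 was high for Ifih1 (0.788). WT 1 was high for Oasl2 (1). WT 2 was high for Isg15 (0.809). WT 3 was high for Ifit1 (0.872), Ifit3 (0.968). WT 4 was high for Isg20 (0.786), Ifi35 (0.887). WT 5 was high for Mx1 (0.952), Oas3 (0.803), Stat2 (0.762), Ifngr2 (0.79). WT 1 was low for Gbp7 (0.826). Trim30a is the only one of these in KO whose call was made in the main test, and its highest value was in the library with the smallest scaling factor, 0.1803; the part of that factor in the value was not tested.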

How the results depend on the processing

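The 6 lower members were the same in all alternatives that could test them, with 6 of 6 lower except 5 after thinning to the smallest total, where Cmpk2 was too weak to be tested. The number of higher members was 1, beside 1.5% of all genes. It was 3 with RLE size factors (2.58% of all genes) and 0 with library size alone (0.654%). With DESeq2 it was 2 (Trim30a and Ifnar2, beside 13.5%), and with no filter 0 (12.3%). Lower were 7 of 20 members with DESeq2 (35%, beside 23.3% of all genes) and 7 of 36 with no filter (19.4%, beside 15.9%). Lower members numbered 6 to 10 and higher members 0 to 3 when 1 library was left out, beside 23.8 to 37.9% and 1.11 to 3.72% of all genes. Without KO 1 and KO 5 there were 10 lower, beside 33.4% of all genes. Without KO 1 or KO 3 there were 10 lower, against 6, as the share of all genes lower went to 33.7% and 37.9%, against 27.1%. Over all genes 2139 differed, 94.8% of them lower; 4123 with DESeq2 (63.3% lower; 23.3% of 11211 tested genes lower and 13.5% higher), 5369 with no filter (56.3% lower), 1354 after thinning, 3639 without KO 1 and KO 5, and 1819 to 3652 with 1 library left out, where leaving out any KO library gave 3354 or more. Members missing per KO library averaged 30.8, and 24.8 when missing meant exactly 0 counts.

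Of the 25 tested members, 12 kept their sign under every alternative. Signs turned for Ifnar1 with RLE size factors (1.7) and DESeq2 (1.6); with library size alone for Rsad2 (−0.4), Ifih1 (−0.41), Bst2 (−0.4), Parp14 (−0.07), Gbp7 (−0.35), Ifngr1 (−0.3) and Ifngr2 (−0.57); and without KO 1 and KO 5 for Rsad2 (−10.35), Ifih1 (−0.78), Ddx58 (0.02), Dtx3l (0.58), Gbp2 (−6.11) and Irgm1 (−10.44). With 1 library left out, log2 fold changes ran from −10.19 to 3.89 for Rsad2, from −1.04 to 1.75 for Ifih1, from −5.79 to 1.83 for Stat2, from −9.72 to 0.91 for Bst2, from −6.37 to 1.17 for Parp14, from −2.06 to 0.2 for Dtx3l, from −6.26 to 7.11 for Gbp2, from −6.95 to 1.25 for Gbp7, from −10.27 to 4.71 for Irgm1, from −1.49 to 0.49 for Ifnar1, from −0.58 to 1.14 for Ifngr1, from −2.45 to 0.99 for Ifngr2. The cause was not tested, other than that the library left out held nearly all KO counts of Rsad2, Gbp2, Irgm1, Stat2, Bst2, Parp14 and Gbp7. No paired analysis was possible because the library numbers pair nothing. At this depth and spread, a p above the threshold does not show that a member stayed the same.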
